A study of Rattus norvegicus with 2 samples.

Results

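The cytosolic ribosome of a mammalian cell is built from ribosomal RNA and a set of ribosomal proteins, each present as a single copy apart from the paired acidic stalk proteins. The proteins of the large subunit carry Rpl names and those of the small subunit Rps names. Their mRNAs are among the most abundant in growing cells, and most of them begin with a C followed by a run of pyrimidines, the terminal oligopyrimidine (TOP) tract, through which the mTOR pathway controls their translation. These are background statements and not results of the data described here.

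The cytosolic ribosomal protein genes were taken by their names, by a rule that uses no measured value but was written with earlier results of these data known. In the deposited table of 14913 distinct gene names, 93 names matched the ribosomal protein pattern. Of these, 13 were removed as other genes (the ribosomal S6 kinases, the Rps27a names and the binding protein gene Rps19bp1), and 12 pseudogene-like or paralogue names were kept apart. The remaining 68 genes, 40 of the large and 28 of the small subunit, are described here out of 12102 genes that had at least 20 reads in total. All 68 were over that minimum, the lowest being Rpl35a with 202 reads, so the minimum removed no gene of this set. Of the names kept apart, Rpl31l4 with 13 reads and Rpl39l with 6 reads fell below it. Rpl7, Rpl13a, Rpl27a, Rpl36, Rpl37a, Rpl41, Rps7 and Rps26 were not among the 93 matching names, so they could not be analysed under these names. The 68 genes are therefore not the complete set of cytosolic ribosomal protein genes.

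The data are poly(A)-selected RNA-seq read counts of RBL-2H3, a rat basophilic leukemia line used as a model of mast cells and basophils. There was 1 library of wild-type cells incubated with IgE and 1 of wild-type cells with no treatment, so both groups share the genotype, and the labels give no dose, duration or antigen. Counted reads were 26268330 in the IgE library and 20917968 in the untreated library. With 1 library per group no difference has a replicate check, and no test across samples was made.

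All 11 mast cell and basophil markers were counted in both libraries, with a summed level of 8318 CPM (counts per library size, with the sizes adjusted by TMM scaling) in the IgE library and 8028 CPM in the untreated library. Of other cell types, 3 of 7 macrophage markers summed to 3.20 CPM with IgE and 5.49 CPM untreated, and 2 of 6 neutrophil markers, of which Camp was at 0, to 1.49 CPM with IgE and 1.24 CPM untreated. Lymphocyte markers, 3 of 6 counted, summed to 16.8 CPM with IgE and 15.8 CPM untreated. Fibroblast and epithelial markers, 2 of 7 counted, summed to 252.5 CPM with IgE and 281.9 CPM untreated, nearly all from Col3a1. The part of these markers in the values below was not tested.

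The starts of the genes at the ends of the range of differences are shown to let the pyrimidine tract be read beside the values. They come from RefSeq (build GRCr8), in which all 68 genes were found by symbol and annotated as protein coding, and 54 had a promoter window. Each line runs from 25 bases before the annotated start to 25 bases after it, 5′ to 3′ on the gene's strand, with the longest run of C and T in capitals. The 4 genes with the highest log2 fold and a window come before the 4 with the lowest.
Rpl37, chr2:55942920-55942969, + strand: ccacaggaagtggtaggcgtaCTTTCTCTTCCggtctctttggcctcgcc
Rps21, chr3:187724013-187724062, + strand: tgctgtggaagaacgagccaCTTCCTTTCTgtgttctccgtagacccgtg
Rpl35a, chr11:81234997-81235046, - strand: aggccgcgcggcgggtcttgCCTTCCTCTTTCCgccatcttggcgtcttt
Rps28, chr7:15311309-15311358, - strand: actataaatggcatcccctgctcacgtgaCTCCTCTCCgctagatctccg
Rps15, chr7:10068091-10068140, - strand: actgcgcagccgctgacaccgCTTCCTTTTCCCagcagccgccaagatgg
Rpsa, chr8:128728854-128728903, + strand: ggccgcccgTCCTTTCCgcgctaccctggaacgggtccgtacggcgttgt
Rps2, chr10:14251823-14251872, + strand: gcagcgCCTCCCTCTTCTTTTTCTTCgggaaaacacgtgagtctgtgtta
Rpl38, chr10:100200410-100200459, + strand: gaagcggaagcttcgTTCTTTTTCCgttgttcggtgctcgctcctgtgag

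Pyrimidine runs were present at both ends of the range, and were longer in this gene set than in promoter windows at large. The longest run within 25 bases of the start had a median of 11 bases over the 54 genes, against 5 bases over 33469 RefSeq windows of the same length. A run of 10 or more bases was found in 37 of the 54 windows (68.5%), against 8.81% of all windows. A C followed by at least 4 pyrimidines exactly at the annotated start was found in 21 of 54 (38.9%), against 2.63% of all windows. In Rps21 and Rps28 above, which have no such start, the run begins a few bases before or after the annotated start. In Rpl37, Rpl35a and Rps15, which have it, the run also begins before the annotated start, at -4, -5 and -4. The second share therefore depends on where the start is annotated, and it is not a share of runs that begin there.

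Differences between the libraries followed these counts of pyrimidines weakly if at all. The longest run was taken anywhere within 25 bases of the annotated start. It can lie before that start, so its length is not a measure of the TOP tract. The 37 genes with a run of 10 or more bases had a median log2 fold of 0.29 (-0.07 to 0.61), and the 17 with a shorter run a median of 0.21 (0.09 to 0.47). The 21 genes with a C and 4 pyrimidines at the start had a median log2 fold of 0.29 (0.10 to 0.61), and the 33 without had a median of 0.22 (-0.07 to 0.57). Across the 54 genes, Pearson's r between run length and log2 fold was 0.03 and Spearman's rho 0.08, given as a description of genes that share the same 2 libraries. Rps2, with a run of 20 bases that begins at position -19 from the annotated start, had a log2 fold of 0.05. Rps12, whose longest run was 3 bases, had 0.46.

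**Figure D1:**
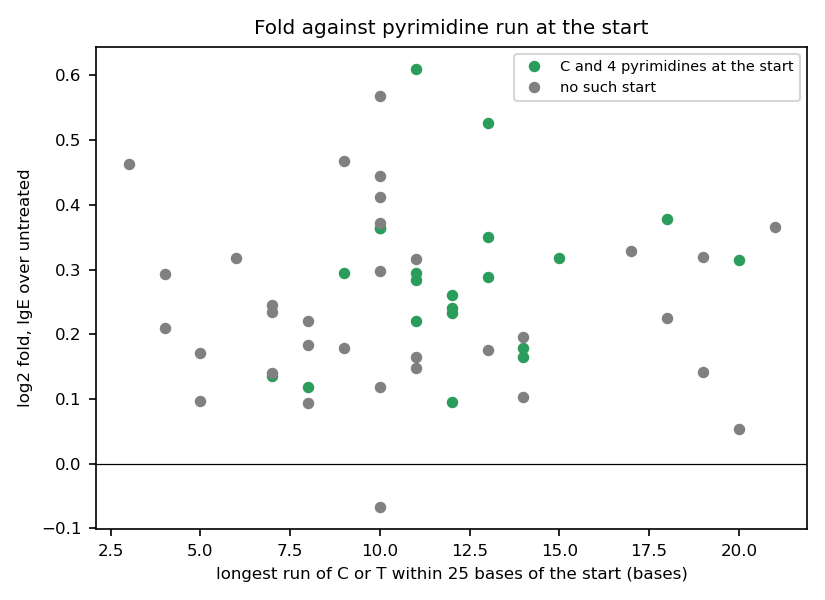
Log2 fold (IgE over untreated) of the 54 ribosomal protein genes with a RefSeq window, against the longest run of C or T within 25 bases of the annotated start, in bases. Green points have a C and 4 pyrimidines at the start (21 genes) and grey points do not (33 genes), and the folds overlap widely, from 0.10 to 0.61 in green and from -0.07 to 0.57 in grey.

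Other letters searched in the full window, 250 bases before to 50 bases after the start and on both strands, were counted as well. The GC box GGGCGG was found in 32 of 54 windows (59.3%), against 33.1% of all windows, and the ETS core CCGGAAG in 17 of 54 (31.5%), against 8.75%. The YY1 core CCATNTT stood in 17 of 54 (31.5%), against 18.3%, and TATAAA in 6 of 54 (11.1%), against 14.2%. All windows are not limited to genes counted in these libraries, and the share over counted genes alone was not computed for these letters. A match is a match of letters and not a shown binding site.

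Transcripts of the cytosolic ribosome were slightly and broadly higher in the IgE library. Of the 68 genes, 67 had a log2 fold above 0, where 50.3% of all tested genes did. The median was 0.27, against 0.00 over all 12102 genes. The quartiles were 0.18 and 0.35, against -0.09 and 0.08 over all genes with 2000 or more reads, a middle range of similar width. Together these genes took 3.81% of the reads of the IgE library and 3.31% of those of the untreated library, a ratio of 1.15. CPM is a share of a library, so more ribosomal protein mRNA and less of other mRNA cannot be told apart from it, nor can fewer cells of a type and less RNA per cell.

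The counts were deep enough for these small differences to exceed counting error. The exact 95% counting interval of the log2 fold, which covers counting error only and not variation between cultures, lay above 0 for 66 genes, held 0 for 2 (Rpl38 and Rpl39, which had 204 and 459 reads) and lay below 0 for none. Over all genes, 19.4% had an interval above 0 and 19.1% below. Among the 5079 genes with 2000 or more reads, whose depth is closer to that of the ribosomal genes, 47.2% had a log2 fold above 0 and 26.1% an interval above 0, while all 65 ribosomal genes of that depth had both.

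The size of the differences stayed well under 2-fold. None of the 68 genes was 2-fold apart in either direction, where 2.63% of all tested genes and 0% of the genes with 2000 or more reads were, so the absence is no feature of this set. A rule of 25% higher was therefore used too, chosen with earlier results of these data known, in which no member was 2-fold apart. Of the 68, 20 were at least 25% higher in the IgE library, where 9.82% of all genes were. Of the 65 ribosomal genes with 2000 or more reads, 19 were at least 25% higher, where 2.09% of all genes of that depth were. In that class the 90th percentile of the log2 fold over all genes was 0.17, and 51 of the 65 lay above it. In steps of the log2 fold, 20 genes were at 0.32 or above, 27 between 0.2 and 0.32, 15 between 0.1 and 0.2, and 6 below 0.1.

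**Figure D2:**
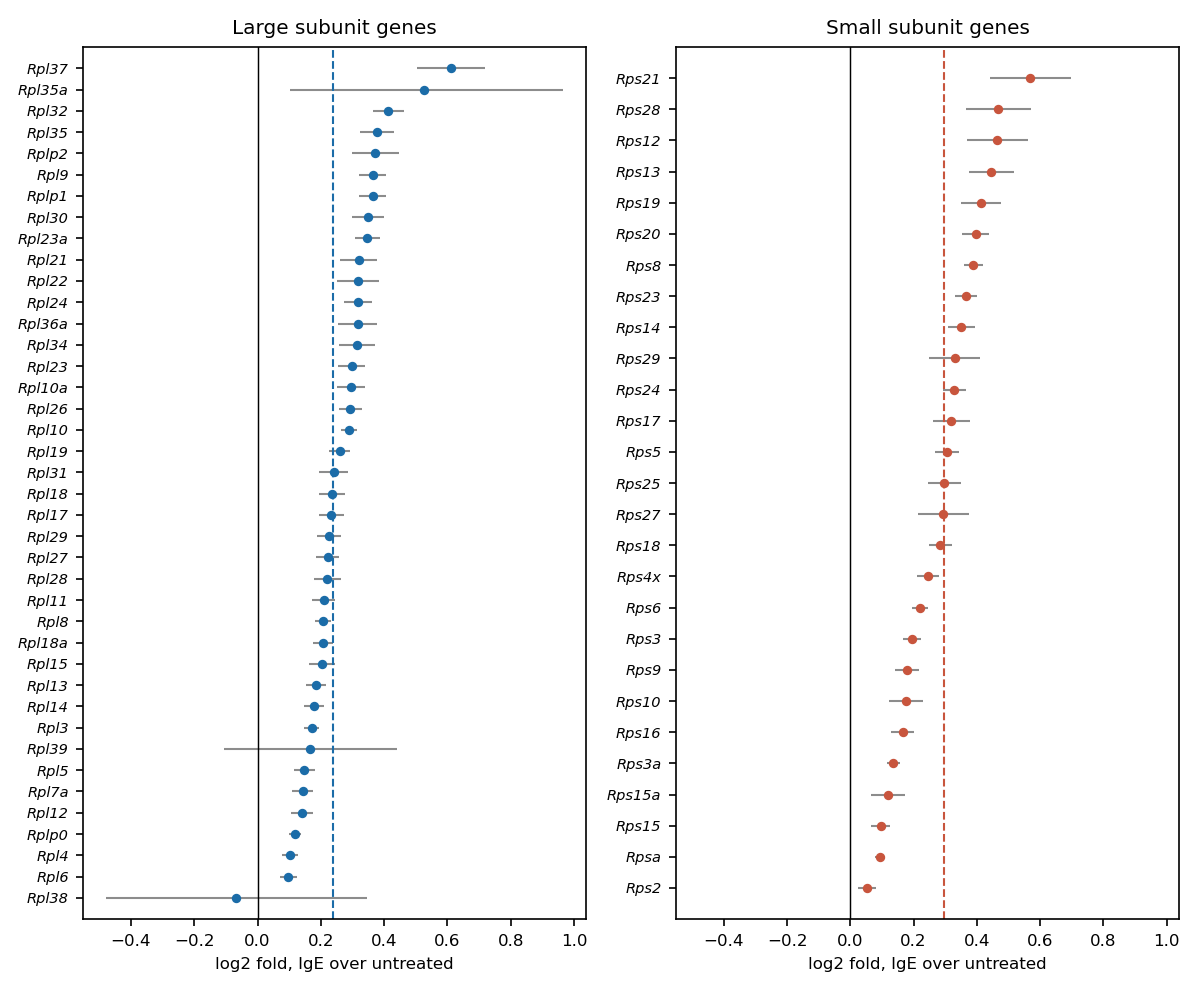
Log2 fold (IgE over untreated) of the 40 large subunit genes (left) and the small subunit genes (right), 1 point per gene with its exact 95% counting interval, leaving out 1 small subunit gene that is not reported here. The dashed lines mark the medians of 0.24 and 0.30, and in both panels the genes form a graded series with Rpl38 as the only point below 0.

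The large subunit carries the peptidyl transferase centre and the tunnel through which the new chain leaves. Its 40 genes had a median log2 fold of 0.24, with 38 intervals above 0, and 9 genes at least 25% higher. Rpl37, which encodes a zinc-binding protein of the large subunit, had the highest, with 2083 reads in the IgE library and 1091 in the untreated library (79.5 CPM with IgE and 52.1 CPM untreated, log2 0.61, interval 0.50 to 0.72). Rpl32 had 9280 reads with IgE and 5572 untreated (0.41, 0.37 to 0.46). Rpl35, at the rim of the tunnel exit, had 7581 with IgE and 4664 untreated (0.38, 0.33 to 0.43), and Rpl9 had 11426 with IgE and 7098 untreated (0.36, 0.32 to 0.41). All 4 were higher in the IgE library by more than counting error.

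Rpl35a, whose human orthologue is mutated in some families with Diamond-Blackfan anaemia, a failure of red cell formation, stood at 0.53 (0.10 to 0.97) on only 130 reads with IgE and 72 untreated. With the reads of its near-copy Rpl35al1 added (567 with IgE and 406 untreated), the log2 fold was 0.22.

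At the low end of the large subunit were some of its most deeply counted genes. Rpl4, which lines the peptide tunnel, had 30429 reads with IgE and 22649 untreated (1161 CPM with IgE and 1081 CPM untreated, log2 0.10, 0.08 to 0.13). Rpl6 had 26671 with IgE and 19942 untreated (0.10, 0.07 to 0.12). Rpl7a had 16317 with IgE and 11822 untreated (0.14, 0.11 to 0.18). These were higher with IgE than counting error allows, yet by less than 25%. Rpl38, known in mouse for its part in translating Hox mRNAs, was the only gene below 0, with 111 reads with IgE and 93 untreated (4.23 CPM with IgE and 4.44 CPM untreated, log2 -0.07, -0.48 to 0.35), and its interval held 0.

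The acidic stalk, which recruits elongation factors to the ribosome, did not have a single value. Rplp1 had 11919 reads with IgE and 7405 untreated (log2 0.36, 0.32 to 0.41), and Rplp2, its partner, 3850 with IgE and 2378 untreated (0.37, 0.30 to 0.45). Rplp0, on which the pair is anchored, had 49527 with IgE and 36490 untreated (0.12, 0.10 to 0.14). Rpl12, at the base of the stalk, had 15870 with IgE and 11518 untreated (0.14, 0.11 to 0.17). The intervals of the anchored pair did not overlap those of the anchor and the base.

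Other parts of the large subunit spanned its range. Rpl5 and Rpl11, which bind 5S ribosomal RNA and, when free, the p53 regulator MDM2, were at 0.15 (0.12 to 0.18) and 0.21 (0.17 to 0.25). The 8 genes that line the peptide tunnel or surround its exit ranged from 0.10 (Rpl4) to 0.38 (Rpl35), with a median of 0.25. Among genes of the X chromosome of GRCr8, Rpl10 was at 0.29, Rpl36a at 0.32, Rpl39 at 0.17 and the small subunit gene Rps4x at 0.25.

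The small subunit reads the mRNA. Its 28 genes had a median log2 fold of 0.30 (0.05 to 0.57), all 28 intervals lay above 0, and 11 genes were at least 25% higher. Rps21 had the highest, with 1413 reads with IgE and 762 untreated (53.9 CPM with IgE and 36.4 CPM untreated, log2 0.57, 0.44 to 0.70). Rps28, a small protein of the subunit's head, had 2126 with IgE and 1229 untreated (0.47, 0.37 to 0.57), and Rps12, also of the head, 2372 with IgE and 1375 untreated (0.46, 0.37 to 0.56). These 3 genes were also the small subunit genes with the fewest reads.

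Rps13 had 4282 reads with IgE and 2515 untreated (log2 0.44, 0.37 to 0.52). Rps19, the gene most often mutated in human Diamond-Blackfan anaemia, had 5576 with IgE and 3350 untreated (0.41, 0.35 to 0.47). Rps20 of the head had 11343 with IgE and 6892 untreated (0.40, 0.35 to 0.44). The 13 head genes ranged from 0.10 (Rps15) to 0.47 (Rps28) with a median of 0.31, so the head held genes of both ends of the small subunit's range. The 10 genes whose human orthologues are mutated in Diamond-Blackfan anaemia likewise ranged from 0.15 (Rpl5) to 0.53 (Rpl35a), with a median of 0.31.

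The low end of the small subunit held its most deeply counted gene. Rpsa, which encodes a small subunit protein also known as the laminin receptor precursor, had 72222 reads with IgE and 54097 untreated (2755 CPM with IgE and 2581 CPM untreated, log2 0.09, 0.08 to 0.11). Rps2, near the mRNA entry channel, had 22763 with IgE and 17534 untreated (868.3 CPM with IgE and 836.5 CPM untreated, 0.05, 0.03 to 0.08). The ratios of IgE to untreated CPM for these genes were 1.07 for Rpsa and 1.04 for Rps2.

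Rps15, Rps15a and Rps3a completed the low end. Rps15 of the head had 20008 reads with IgE and 14973 untreated (log2 0.10, 0.06 to 0.13). Rps15a had 6868 with IgE and 5056 untreated (0.12, 0.07 to 0.17), and Rps3a had 45538 with IgE and 33145 untreated (0.14, 0.12 to 0.16). Rps6, the substrate of the S6 kinases, lay inside the range at 0.22 (0.20 to 0.25), with 31976 reads with IgE and 21947 untreated.

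**Figure D3:**
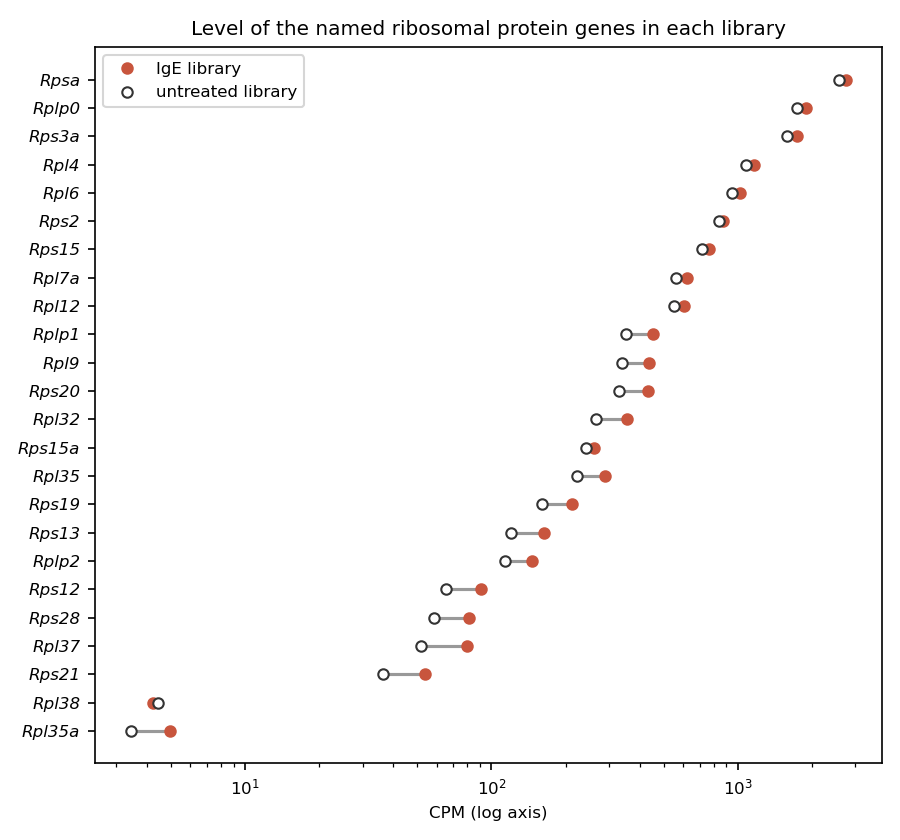
Level in CPM (log axis) of the reported ribosomal protein genes at the ends of each subunit's range and of Rplp1, with the IgE library as filled and the untreated library as open points. The gap between the points is wide for Rpl37, Rps21, Rps28 and Rps12 and narrow for Rpsa, Rplp0, Rps3a and Rps2.

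Within the gene set, the difference tended to be larger where the level in CPM was lower. Over all 68 genes, Pearson's r between the log2 fold and the log2 mean CPM was -0.38 and Spearman's rho -0.58. Without the 3 genes under 2000 reads, a choice made after the values were seen, r was -0.74 and rho -0.68 over 65 genes. Over all 5079 genes of that depth the values were -0.01 and -0.03. The 12 ribosomal genes with 2000 to 10000 reads had a median log2 fold of 0.39 (0.29 to 0.61), and the 10 with the most reads a median of 0.13 (0.05 to 0.29). CPM is not a level per length, and the files give no transcript lengths, so the part of transcript length in this gradient was not tested. The genes share the same 2 libraries, and the correlations are descriptions.

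**Figure D4:**
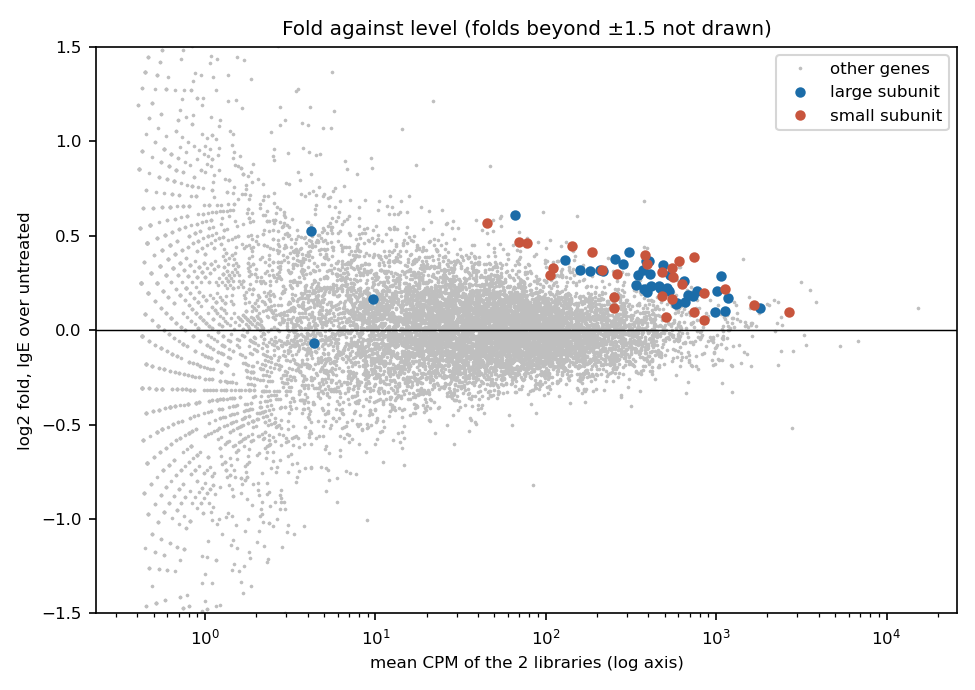
Log2 fold (IgE over untreated) against the mean CPM of the libraries (log axis) for 12102 genes, with large subunit genes in blue and small subunit genes in red. Genes beyond the limits of the fold axis are not drawn. The ribosomal genes form a band above 0 that slopes down towards high CPM, while the other genes centre on 0.

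Pseudogene-like and paralogue names were counted apart, since reads can be shared between near-identical copies. Of the 10 over the minimum, 7 had an interval above 0, where 19.4% of all genes did, and 3 held 0. The median log2 fold was 0.40, or 0.23 without the most extreme name. Rpl22l1, a paralogue of Rpl22 that can take its place in the ribosome, had 787 reads with IgE and 405 untreated (log2 0.64, 0.46 to 0.81), while Rpl22 had 4637 with IgE and 2974 untreated (0.32, 0.25 to 0.38). Rps27l, a p53-inducible paralogue of Rps27, had 1537 with IgE and 820 untreated (0.58, 0.46 to 0.71), while Rps27 had 3061 with IgE and 1996 untreated (0.29, 0.21 to 0.38). In both pairs the interval of the paralogue lay above that of the standard gene. Rpl7l1 had 8755 with IgE and 6415 untreated (0.13, 0.08 to 0.17).

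Of the 7 pseudogene-like names, RefSeq annotates Rps10l1, Rpl32-ps3 and Rpl12-ps1 as pseudogenes and the other 4 as protein coding. Rps10l1 had 4424 reads with IgE and 3138 untreated (log2 0.17, 0.11 to 0.24), close to Rps10 at 0.18 (0.12 to 0.23). Rps18l1 had 2729 with IgE and 1858 untreated (0.23, 0.15 to 0.32), and Rps18 was at 0.28 (0.25 to 0.32). Rpl32-ps3 had 812 with IgE and 440 untreated (0.56, 0.39 to 0.73), next to Rpl32 at 0.41. The interval of each overlapped that of its standard gene.

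Among the other pseudogene-like names, Rpl35al1 had 567 reads with IgE and 406 untreated and was at a log2 fold of 0.16 (-0.03 to 0.35). The rest of these names had few reads. Rps12l2, with 35 reads with IgE and 12 untreated, was at 1.19 (0.24 to 2.30), the only one at least 2-fold apart among the 78 names over the minimum (68 genes and 10 names kept apart). Rpl12-ps1 had 37 with IgE and 18 untreated (0.70, -0.13 to 1.62), and Rps15al4 had 22 with IgE and 19 untreated (-0.11, -1.06 to 0.85). Rps27a, a fusion of ubiquitin and a ribosomal protein that the choice by name left out, had 12138 reads with IgE and 6037 untreated (0.68, 0.64 to 0.73), and its pseudogene Rps27a-ps1 had 1603 with IgE and 2260 untreated (-0.82, -0.91 to -0.73). The reads of Rps27a and its pseudogene were not added together, and sharing of reads between them was not tested.

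Other genes whose mRNAs are reported to begin with a TOP tract, together with ribosomal proteins of other names, were set beside the set. Of 26 listed names, 19 were measured, 14 had an interval above 0, 4 below and 1 held 0, and the median log2 fold was 0.11. Among all genes with 2000 or more reads, 26.1% had an interval above 0 and 28.3% below. Rps27a, counted without the reads of its pseudogene, was the highest. Next were Fau, a fusion whose product includes a small subunit protein (4435 reads with IgE and 2616 untreated, 0.44, 0.37 to 0.51), and the elongation factor subunit gene Eef1b2 (8623 with IgE and 5445 untreated, 0.34, 0.29 to 0.39). Rack1, a scaffold protein on the small subunit's head, was at 0.14 (0.11 to 0.16). The translocation factor gene Eef2 had 135235 reads with IgE and 114708 untreated (-0.09, -0.10 to -0.07), and Vim, which encodes the intermediate filament vimentin, was at -0.11 (-0.13 to -0.10). Eef1a1 had 14 with IgE and 34 untreated (-1.57, -2.62 to -0.67), few for an mRNA that is abundant in most cells.

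The nucleolar factors and RNA polymerase I subunits that build ribosomes were centred near 0. Of 39 listed names, 36 were measured, each with at least 2154 reads, and the median log2 fold was -0.02. Intervals lay above 0 for 7, lay below 0 for 9 and held 0 for 20. Among all genes with 2000 or more reads, 26.1% had an interval above 0 and 28.3% below. None of the 36 was 25% higher, where 2.09% of all genes of that depth were, so that absence is no feature of the list. Nip7 (0.28), Nhp2 (0.24) and Nop10 (0.22), of which Nhp2 and Nop10 belong to the small particles that modify uridines in ribosomal RNA, were the highest. Utp3 (-0.17), Nop2 (-0.12) and Rrp1b (-0.12) were the lowest. Ncl, which encodes the abundant nucleolar protein nucleolin, had 58017 reads with IgE and 46447 untreated (0.00, -0.02 to 0.02).

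Other gene groups were also above 0. Groups taken by name pattern had median log2 folds of 0.23 for 56 nuclear genes of the respiratory chain, 0.14 for 73 mitochondrial ribosomal proteins and 0.13 for 36 proteasome subunits. At least 25% higher were 15 of 56, 11 of 73 and 0 of 36, beside 20 of the 68 cytosolic ribosomal protein genes. The share was 9.82% over all genes and 2.09% over the genes with 2000 or more reads. The 0 of 36 proteasome subunits is close to the latter share. The SD across genes was 0.13 in the cytosolic ribosomal set, 0.22 in the respiratory chain, 0.24 in the mitochondrial ribosomal group, 0.11 in the proteasome and 0.10 in ribosome biogenesis. The median reads over both libraries were 20970.5, 2153.5, 1347, 8754 and 7286 in these groups, in the same order. No test of these differences between groups was made.

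**Figure D5:**
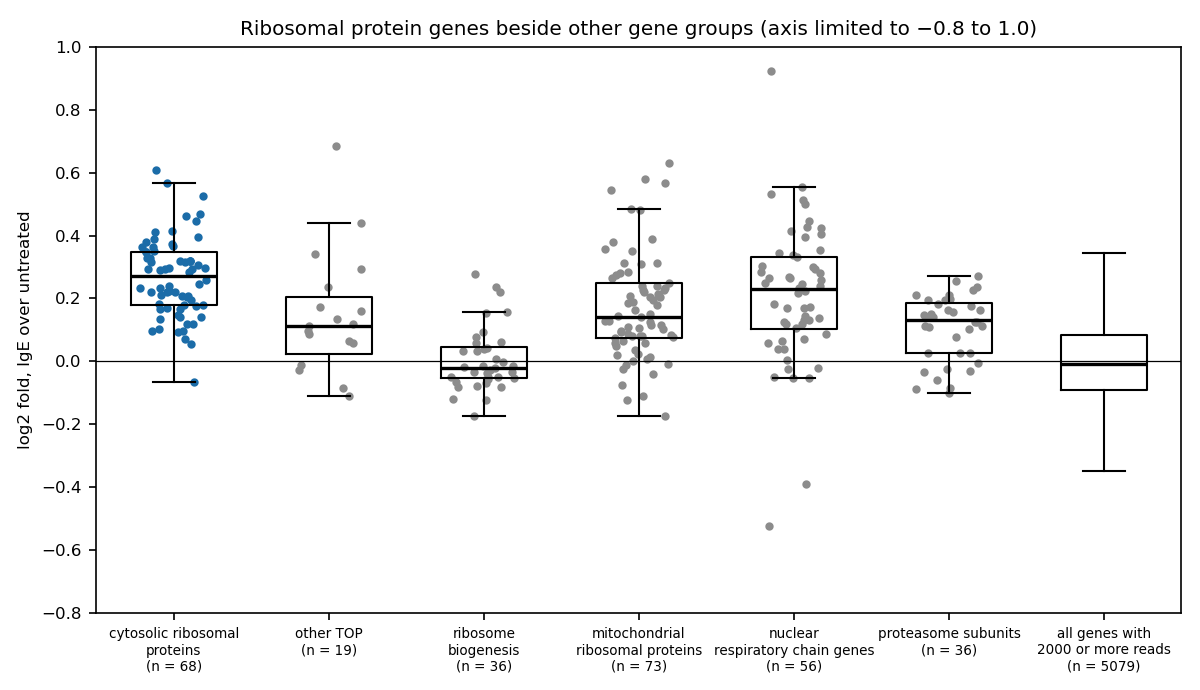
Log2 fold (IgE over untreated) by gene group, 1 point per gene, except that all genes with 2000 or more reads are shown as a box only. Boxes mark the quartiles, a line the median, and whiskers reach the last gene within 1.5 times the box. The cytosolic ribosomal box (0.18 to 0.35) overlaps those of the respiratory chain, the mitochondrial ribosomal proteins, the other TOP genes and the proteasome, and lies above those of ribosome biogenesis and of the 5079 genes with 2000 or more reads, and genes beyond the axis (Eef1a1 and Mrps17) are not drawn.

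None of the 68 genes was in the authors' deposited table of 451 selected names, which is 3.02% of all names, so that a count of 0 is close to that share. It held 1 of the names kept apart, Rps12l2. In the authors' deposited table of all genes, 7 of the 68 had an unadjusted p under 0.05, all of them higher with IgE, where 2.5% of all names were so, and the lowest adjusted p was 0.35, for Rpl37. These p-values rest on 1 library per group.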

How the data were processed

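Poly(A)-selected RNA of 1 IgE-treated and 1 untreated culture of RBL-2H3 cells was sequenced. The authors deposited unnormalised counts of reads for each gene name. Their table also holds a log2 ratio of the libraries with an unadjusted and an adjusted p-value, per the file headers. HISAT2 2.1.0, fastp 0.23.0, DESeq2 1.18.1 and rn6 are listed in the submitters' processing notes. The sources used here do not give the counter, its strand setting or how it treated multiply mapping reads, so reads of ribosomal protein genes and their many near-identical copies may be split or dropped.

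Identical rows were kept once (16990 rows, 14913 names). Log2 CPM used TMM scaling (edgeR 4.0.16, R 4.3.3) and a prior of 0.5 counts, over genes with 20 or more reads. Intervals are exact Clopper-Pearson 95% intervals of the read ratio and cover counting error only. The calculation was tested on simulated data. Alternatives were library totals, DESeq2 1.42.0 size factors, TMM without ribosomal protein genes, a prior of 5 counts, no minimum or 100 reads, a 1.5-fold rule, lists without their most extreme member, and reads or names of near-copies added.

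Named genes were the 6 highest and 6 lowest log2 folds of each subunit, the stalk genes and Rpsa, each name kept apart, and the 3 highest and 3 lowest of each comparison list. A gene that this rule names is not reported here. Rpl5, Rpl11, Rps6, Rpl22, Rps27, Rps10, Rps18, Rpl10, Rpl36a, Rpl39, Rps4x, Rack1 and Ncl were added after their values were seen. So were the structural and disease groups, the name-pattern groups and the class of 2000 or more reads. The part of the naming rule on levels per coding length was not applied. Members and lists were chosen with earlier results of these data known.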

Additional observations from a re-analysis of the deposited data

How the results depend on the processing

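Of 73 alternative values of the medians and counts, 71 stayed within a set bound. For a median, the bound ran from the median lower limit to the median upper limit of the members' counting intervals. It is a rule of size and not an interval of the median itself. For a count, the bound was 1.5 times the count. The exceptions concerned ribosomal protein genes at least 2-fold apart, of which there were none, against 1 when pseudogene-like and paralogue names were counted (Rps12l2) and 1 under a 1.5-fold rule (Rpl37). The median of the 68 genes ranged from 0.253 with reads of pseudogene-like names added to 0.284 without its most extreme member, and was 0.266 with library totals and 0.274 with TMM scaling computed without the ribosomal protein genes. Restricting it to genes with 2000 or more reads, an alternative chosen after seeing the data, gave 0.284. For single genes, each of 213 alternative values remained inside the interval given for that gene. This is a weak check, because the scalings differ little and adding reads of near-copies leaves a gene without a near-copy unchanged. The median of all genes lay between -0.0042 and 0.003 under these scalings. No paired analysis was possible because there is 1 library a group. Leaving out a library would leave no comparison. Depth limits Rpl35a, Rpl38 and Rpl39, whose reads were few.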
